A study of Mus musculus with 2 samples.

Results

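Ezrin binding partners and the kinases that activate ezrin were followed through 10 genes, chosen by name: the scaffolds Slc9a3r1, Slc9a3r2 and Pdzk1, the membrane proteins Ceacam1, Podxl, Cd44, Icam1 and Icam2, and the kinases Slk and Stk10. The array carries 32 probe sets annotated to exactly 1 of these genes, out of 45101 in all, and all 32 are given here. These 10 genes belong to 18193 with a probe set of their own. RNA came from hepatocytes of wild-type male FVB mice (FVB/N in the design text) aged 6 to 8 weeks. All mice were injected hydrodynamically through the tail vein, that is, fast and with a large volume, which carries plasmids into hepatocytes, with 10 µg of the Ezrin T567D plasmid (PT3EF5α EzrinT567D) and 0.8 µg of the transposase plasmid pCMV/SB in 2 ml of saline. T567D puts an acidic residue in place of the threonine that is phosphorylated in active ezrin. Cells isolated with collagenase 1 week later were sorted into a GFP+ fraction, called EzrinT567D positive, and a GFP- fraction, called EzrinT567D negative, with 1 array each on the Affymetrix Mouse Genome 430 2.0 platform.

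Both groups therefore share the injection, and the negative fraction is no uninjected control. The label fields disagree on other points: the description fields give 2 months for both samples, with a fast food diet for the positive and chow for the negative sample, whereas the growth protocol gives chow for both. Diet and the transgene cannot be told apart if the description is right. With 1 array in each group no test between groups exists, and every value below describes these 2 arrays only.

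Ezrin, radixin and moesin (the ERM proteins) tie the plasma membrane to cortical actin. In the closed protein the amino-terminal FERM domain is masked by the carboxy-terminal tail, and binding of the lipid PIP2 followed by phosphorylation of a conserved threonine opens it. The open form binds the cytoplasmic tails of membrane proteins such as CD44, ICAM-1 and ICAM-2, or reaches channels and transporters through the PDZ scaffolds NHERF1 and NHERF2. In hepatocytes the ERM protein that predominates is radixin, at the bile canaliculus, the apical surface between neighbouring cells. SLK and its relative LOK (Stk10) are kinases that phosphorylate this threonine in epithelial cells and lymphocytes.

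Promoter windows are printed for Slc9a3r2 and Icam1 only, which were chosen with their array values known. Sequences are from RefSeq (GRCm38.p6), in which 10 windows were matched to 8 of the 10 members, the others being Podxl and Icam2. Slc9a3r2 has 2 start sites in it, and its probe sets below disagree, so the 250 bases before each start are printed, followed by those before the start of Icam1, a gene known to be induced by inflammatory signals through NF-kB. Capitals mark, on either strand, the AP-1 motif TGANTCA, the NF-kB motif GGAAATTCC and the SP1 motif GGGCGG.
Slc9a3r2, chr17:24650306-24650555, minus strand: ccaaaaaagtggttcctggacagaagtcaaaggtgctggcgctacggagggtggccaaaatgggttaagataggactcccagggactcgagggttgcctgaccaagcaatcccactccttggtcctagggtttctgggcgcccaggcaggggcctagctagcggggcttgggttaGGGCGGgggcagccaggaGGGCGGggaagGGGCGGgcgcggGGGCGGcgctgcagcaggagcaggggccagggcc
Slc9a3r2, chr17:24644958-24645207, minus strand: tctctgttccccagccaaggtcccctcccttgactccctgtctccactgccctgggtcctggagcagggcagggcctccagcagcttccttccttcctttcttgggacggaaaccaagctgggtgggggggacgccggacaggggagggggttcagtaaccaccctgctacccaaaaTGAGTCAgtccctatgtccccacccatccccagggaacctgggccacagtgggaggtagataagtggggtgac
Icam1, chr9:21015690-21015939, plus strand: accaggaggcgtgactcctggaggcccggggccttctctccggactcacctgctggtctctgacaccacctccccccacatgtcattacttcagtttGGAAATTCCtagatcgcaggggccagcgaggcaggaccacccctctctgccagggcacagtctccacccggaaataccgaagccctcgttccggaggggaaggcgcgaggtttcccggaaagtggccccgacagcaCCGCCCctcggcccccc

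The first Slc9a3r2 window held 4 SP1 motifs and no AP-1 motif, and the second held 1 AP-1 motif, TGAGTCA, beginning 73 bases before the start, and no SP1 motif. The Icam1 window held 1 NF-kB motif, beginning 153 bases before the start, and 1 SP1 motif. Among all 32851 windows of the same length, 6.75% held the AP-1 motif, 0.286% the NF-kB motif and 32.7% the SP1 motif. The motifs do not overlap one another in these windows. A match describes the letters only. Other forms of these sites were not searched, so the percentages hold for the printed motifs alone. Any bearing of the motifs on the array values was not tested.

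**Figure D1:**
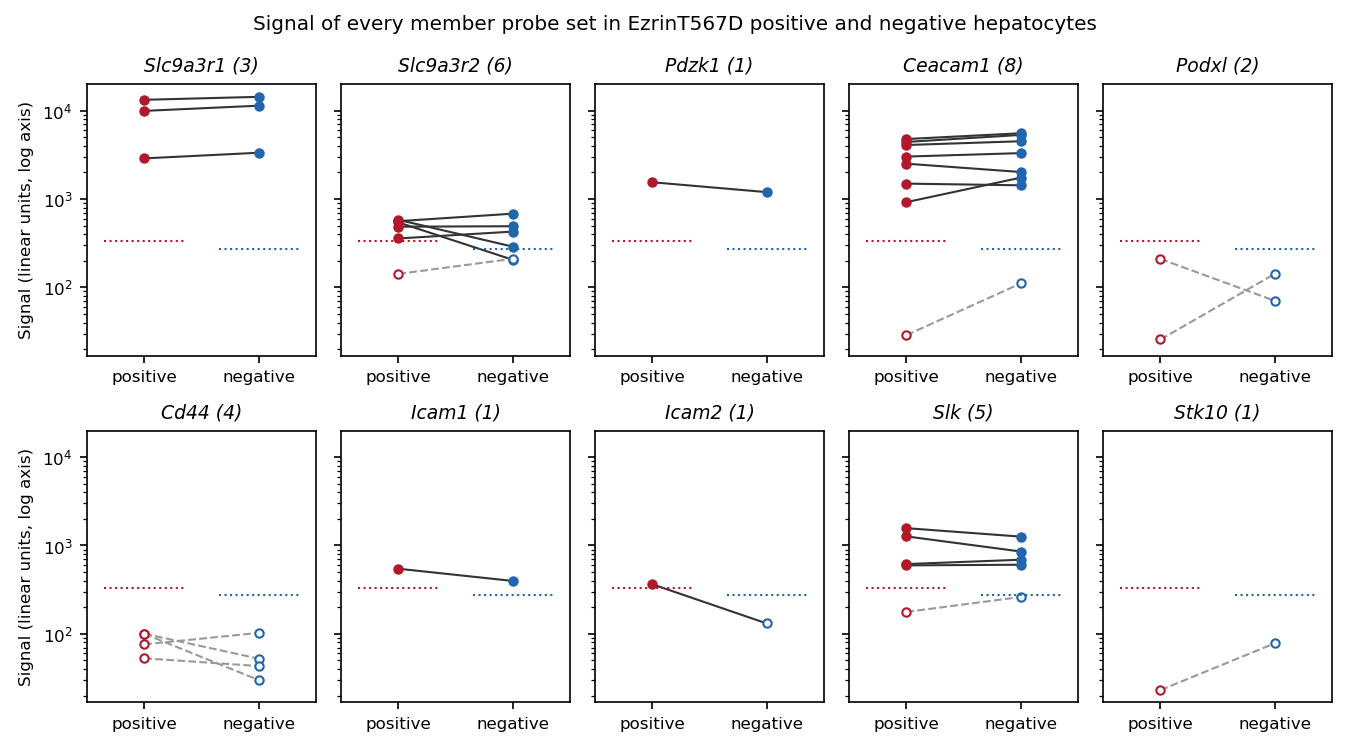
Signal of each probe set of the 10 genes (linear units on a log axis), with the positive array at the left of each panel and the negative array at the right. Lines join the 2 signals of a probe set, dotted bars give the background floor of each array (334.0 positive, 272.4 negative), open circles lie at or below it and dashed lines mark probe sets below it in both arrays. Slc9a3r1 and most probe sets of Ceacam1 sit far above the floor, whereas Podxl, Cd44 and Stk10 sit below it throughout.

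The plot of signals by gene shows which members the arrays could measure. Background was judged, array by array, from 87 probe sets of smell, pheromone, taste and trace amine receptor genes, which hepatocytes are not known to use, and their 95th percentile served as the floor. Of the 32 probe sets, 20 exceeded the floor in both arrays, 2 in the positive array only, 0 in the negative array only and 10 in neither. Slc9a3r1, Slc9a3r2, Pdzk1, Ceacam1, Icam1 and Slk were measured in both arrays, Icam2 gave a bound, and Podxl, Cd44 and Stk10 gave no ratio. Of all 18193 genes, by their brightest probe set, 8268 exceeded the floor in both arrays and 8289 in neither. A further 434 exceeded it in the positive array only and 1202 in the negative array only, where the floor was lower (272.4 against 334.0). Signals of different probe sets are not set against each other, since their probes bind with different strength.

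No member differed by 2-fold when its brightest probe set stood for the gene, against 1.14% of 9904 genes above the floor in at least 1 array that were 2-fold higher in the positive array and 0.596% that were 2-fold lower. At a smaller difference, a log2 ratio of 0.322 or more in size, 3 of the 7 members with a value were higher (Pdzk1, Icam1 and Icam2, the last by its bound) and 0 lower, against 18.5% of genes higher and 14.3% lower. Slk, at a log2 ratio of 0.318, lay just under it. The split depended on the normalization. After quantile normalization Slc9a3r2 passed this size on the lower side (-0.35), and the Icam2 bound (0.30) did not reach it. After loess correction Slc9a3r2 again passed it on the lower side (-0.34), Slk passed it (0.33) and the Icam2 bound (0.12) did not. Over the 6 members measured in both arrays the median log2 ratio was 0.10, with 3 higher and 3 lower. Over all 8268 genes measured in both arrays the median was -8.2e-05, with 4133 higher and 4134 lower.

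The only error available is technical. It comes from probe sets read on the same 2 arrays, so it leaves out any error shared within an array, from the sort onward. Differences between transcripts of a gene may add to it. A gene with several measured probe sets gives several estimates of one ratio, and 3141 genes had 2 or more. Between the 2 brightest of such a gene the log2 ratio differed by 0.25 in the median, the SD of these differences was 0.41, and in 51.2% of the genes the measured probe sets lay on opposite sides of 0. A difference carries the error of both probe sets, so the SD of a single probe set was taken as that value divided by the square root of 2, which is 0.29 over all these genes, 0.33 for the 1889 whose dimmer reading was below 1000 and 0.24 for the other 1252. Of the 20 member probe sets measured in both arrays, 13 had a log2 ratio smaller in size than 0.29 and 7 a larger one: 2 each of Ceacam1 and Slk and 1 each of Slc9a3r2, Pdzk1 and Icam1. Over all probe sets measured in both arrays, 37.2% had a ratio larger in size than that. Of the 20, 7 read higher and 13 lower, and their median log2 ratio was -0.12, against 0.018 over all 13196 such probe sets, 52.2% of which read higher.

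**Figure D2:**
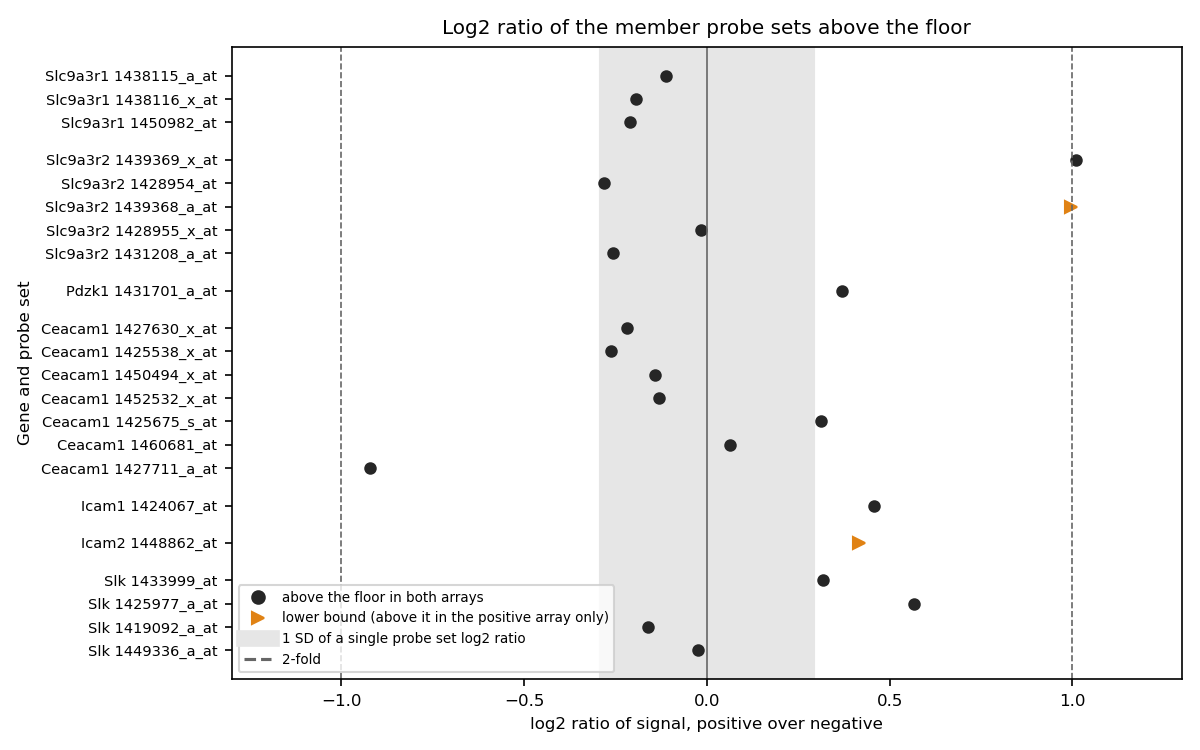
Log2 ratio of signal, positive over negative array, for each member probe set above the floor, grouped by gene and ordered by signal in the positive array. Circles are measured in both arrays, triangles are lower bounds, the grey band is 1 SD of a single probe set (0.29), estimated from differences between probe sets of a gene, and dashed lines mark 2-fold. Of the 20 circles, 13 sit inside the band and 7 outside it (2 each of Ceacam1 and Slk and 1 each of Slc9a3r2, Pdzk1 and Icam1), and the Slc9a3r2 and Icam2 bounds sit outside it too.

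Slc9a3r1 encodes NHERF1 (also called EBP50), the scaffold whose tail binds the FERM domain and whose PDZ domains hold membrane transporters. Its probe sets gave signals of 13245.2 in the positive and 14305.9 in the negative array for 1438115_a_at, 9921.6 and 11357.9 for 1438116_x_at, and 2878.7 and 3333.8 for 1450982_at. All 3 were slightly lower in the positive array, at log2 ratios of -0.11, -0.20 and -0.21, a mean of -0.17 ± 0.054 (SD over 3 probe sets). The first 2 were designed from the same sequence entry and are not independent. The gap of 0.10 between the highest and lowest of these ratios was narrow: 94.8% of the 771 genes with 3 measured probe sets had one at least as wide. The size of the difference depends on signal-dependent scaling, because bright probe sets leaned lower as a whole, with a median log2 ratio of -0.088 over the 3299 brightest probe sets and 0.16 over the 3299 dimmest of those measured in both arrays. After quantile normalization the Slc9a3r1 ratios were 0.00, -0.071 and -0.16, and after loess correction -0.0029, -0.088 and -0.14.

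Slc9a3r2 encodes NHERF2, the second scaffold of this kind, known from kidney and intestine as a regulator of the sodium-proton exchanger NHE3. Its 6 probe sets did not share a direction. Probe set 1439369_x_at read 580.9 in the positive and 288.7 in the negative array, 2.01-fold higher, and 1439368_a_at read 543.1 and 205.1, the second below the floor, at least 1.99-fold higher. Both were designed from the same sequence entry, and no other probe set of the gene was. The other measured probe sets were level or lower: 1428954_at read 560.6 and 681.5 (log2 ratio -0.28), 1428955_x_at read 485.6 and 491.3 (-0.017) and 1431208_a_at read 357.3 and 427.3 (-0.26). These ratios were all smaller in size than the 0.29 SD of a single probe set. The remaining probe set, 1452976_a_at, was below the floor in both arrays, at 141.9 and 210.3. It was designed from the same sequence entry as 1428954_at and 1428955_x_at, so these are not independent.

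The ratios of the 4 Slc9a3r2 probe sets measured in both arrays spanned 1.29 on the log2 scale. Among the 266 genes with 4 such probe sets, 5.26% spanned at least as much, and among the 86 of these genes with a mean signal under 1000, as for Slc9a3r2, 9.30% did. Of all probe sets measured in both arrays, 1.15% were 2-fold higher and 0.508% 2-fold lower. The higher probe sets lay close to the floor in the negative array, 1.06 times the floor for 1439369_x_at and 0.753 times for 1439368_a_at. For 1439369_x_at the log2 ratio was 0.91 after quantile normalization and 0.85 after loess correction, under 2-fold in both. Averaged over the 4 measured probe sets, the gene's log2 ratio was 0.11 ± 0.61 (SD), whereas its brightest probe set gave -0.28, so the gene as a whole has no settled direction. Which of the transcripts from the printed start sites each probe set binds is not given in the sources used here.

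Pdzk1 encodes the third relative, also named NHERF3; in mouse liver it is known to keep the HDL receptor SR-BI (Scarb1) at the hepatocyte surface. Its single probe set, 1431701_a_at, read 1544.8 in the positive and 1195.0 in the negative array, 1.29-fold higher. The log2 ratio of 0.37 ranked above 85.8% of all genes measured in both arrays, and 25.9% of genes had a ratio at least as large in size. It was larger than the 0.29 SD of a single probe set and smaller than the 0.41 SD of a difference between 2 of them, and it kept its size after quantile normalization (0.38) and loess correction (0.38). The related scaffold Pdzd3, or NHERF4, read 1014.2 and 705.1 (log2 ratio 0.52), also from a single probe set, and is described with the ligands below.

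Ceacam1, an adhesion receptor of the bile canalicular membrane that promotes insulin clearance in hepatocytes, had 8 probe sets of its own. The 4 brightest were all slightly lower in the positive array: 1427630_x_at read 4763.0 in the positive and 5538.9 in the negative array, 1425538_x_at 4417.4 and 5303.0, 1450494_x_at 4077.5 and 4498.0, and 1452532_x_at 3016.3 and 3302.3, with log2 ratios of -0.22, -0.26, -0.14 and -0.13. After quantile normalization these ratios were nearer to 0, at -0.11, -0.16, -0.051 and -0.076. After loess correction they were -0.13, -0.17, -0.056 and -0.060. Probe sets whose names end in _x_at hold probes that may bind other transcripts. Probe set 1425675_s_at read 2506.7 and 2018.3 (log2 ratio 0.31), and 1460681_at, the single measured one without a suffix, read 1491.4 and 1426.9 (0.064). Probe set 1427711_a_at stood apart at 920.0 in the positive and 1742.3 in the negative array, 1.89-fold lower, with log2 ratios of -0.92 as deposited, -0.93 after quantile normalization and -0.92 after loess correction.

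The second Ceacam1 probe set from the same sequence entry as 1427711_a_at, 1427712_at, was below the floor in both arrays, at 28.8 and 110.6. Over the 7 measured probe sets the log2 ratio averaged -0.19 ± 0.38 (SD), 2 higher and 5 lower. They spanned 1.23, and 42.9% of the 14 genes with 7 measured probe sets spanned at least as much. A further 2 probe sets are annotated to Ceacam1 together with its close paralog Ceacam2 and are not counted, with readings of 2371.5 and 2700.6 for 1422123_s_at and 2143.4 and 2306.1 for 1460682_s_at. Both leaned the same way as the brightest Ceacam1 probe sets, at -0.19 and -0.11. The gene's direction changed with the choice of probe sets, at -0.22 for the brightest and 0.064 without probe sets that carry a suffix.

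Icam1 and Icam2 encode ligands of leukocyte integrins whose cytoplasmic tails bind ERM proteins. Icam1 read 545.3 in the positive and 396.9 in the negative array (1424067_at), 1.37-fold higher, and its log2 ratio of 0.46 ranked above 90.3% of genes measured in both arrays. By size alone, 17.2% of genes had a ratio at least as large, and the dimmest probe sets leaned higher as a whole (median 0.16). The Icam1 ratio exceeded the SD of a single probe set, both the 0.29 over all genes and the 0.33 for dim ones. After quantile normalization it was 0.36 and after loess correction 0.34. Icam2 read 363.8 in the positive array, 1.09 times its floor, and 131.1 in the negative array, below the floor there (1448862_at), at least 1.34-fold higher. With the higher of the 2 floors used for both arrays, the Icam2 bound was 0.12 on the log2 scale, and with the floor at the 99th percentile it gave no ratio.

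Icam2 and Podxl are known from endothelium and Icam1 and Cd44 from endothelial cells, macrophages and lymphocytes, so the markers of these cells are given beside them. Of 15 endothelial markers, 8 were above the floor in both arrays, 3 in the negative array only and 4 in neither, Pecam1, Lyve1, Vwf and Tie1. Among the 8 measured, 5 read higher and 3 lower (median log2 ratio 0.14, but 0.044 after quantile normalization, 0.0041 after loess correction and 0.0025 with the mean over probe sets). Farthest from 0 among the 8 was the endothelial cadherin Cdh5, at 507.0 in the positive and 283.0 in the negative array (0.84), while its other probe set was below the floor in both and level, at 216.1 and 217.4. Egfl7 came next, at 950.7 and 1216.2 in its brightest probe set (-0.36), and its other measured ones gave -0.36 and 0.29. Endoglin (Eng), above the floor in the negative array only, read 168.3 and 464.8, at least 1.39-fold lower. The summed signal of the 15, readings below the floor included, was 6843.3 in the positive and 6732.4 in the negative array. Of 12 Kupffer cell and macrophage markers, 4 were measured in both arrays, 1 higher and 3 lower, and 7 in neither. Farthest from 0 among the 4 were C1qb (765.8 and 1214.2, -0.66) and Lyz2 (523.4 and 690.4, -0.40). The others were Csf1r (702.1 and 558.7, 0.33) and Clec4f (354.7 and 379.2, -0.096). The sum over all 12, readings below the floor included, was 3122.2 and 4189.4. Of 11 lymphocyte and neutrophil markers with a probe set, 1 was measured in both arrays, Laptm5 (447.1 and 578.4, -0.37), while Ptprc was below the floor in both. The sum over the 11, readings below the floor included, was 1838.1 and 1911.6. The part of other cell types in the Icam1 and Icam2 values was not tested, and in a sorted fraction more cells of a type and more RNA per cell cannot be told apart.

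Podxl and Cd44 were not detectable above background in these arrays. Podxl encodes podocalyxin, a sialomucin of podocytes and vessels that reaches ezrin through NHERF1 and NHERF2. Its 2 probe sets, designed from the same sequence entry, read 209.5 in the positive and 70.4 in the negative array for 1448688_at and 25.7 and 142.1 for 1417396_at, all below the floor and in opposite directions. Cd44 encodes the hyaluronan receptor that was among the first membrane proteins found to bind ERM proteins. Its 4 probe sets ranged from 52.9 to 100.3 in the positive and from 30.0 to 102.5 in the negative array, at most 0.376 times the floor. No direction can be read from these values.

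The kinases differed in whether they could be measured. Slk had 5 probe sets: 1433999_at read 1569.6 in the positive and 1259.0 in the negative array (log2 ratio 0.32), and 1425977_a_at read 1266.1 and 854.1 (0.57, 1.48-fold higher). Probe sets 1419092_a_at, at 616.0 and 689.3 (-0.16), and 1449336_a_at, at 595.2 and 605.3 (-0.024), share a sequence entry and did not lean higher. The fifth, 1443815_x_at, was below the floor at 177.0 and 261.2. The 4 measured probe sets averaged 0.17 ± 0.33 (SD), 2 higher and 2 lower, and they spanned 0.73, a width reached by 32.0% of the 266 genes with 4 measured probe sets. Among the 86 of these genes with a mean signal under 1000, as for Slk, 50% reached it. Stk10 (LOK), a kinase best known from lymphocytes, was below the floor at 23.1 and 78.2 in its single probe set, 1417751_at.

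**Figure D3:**
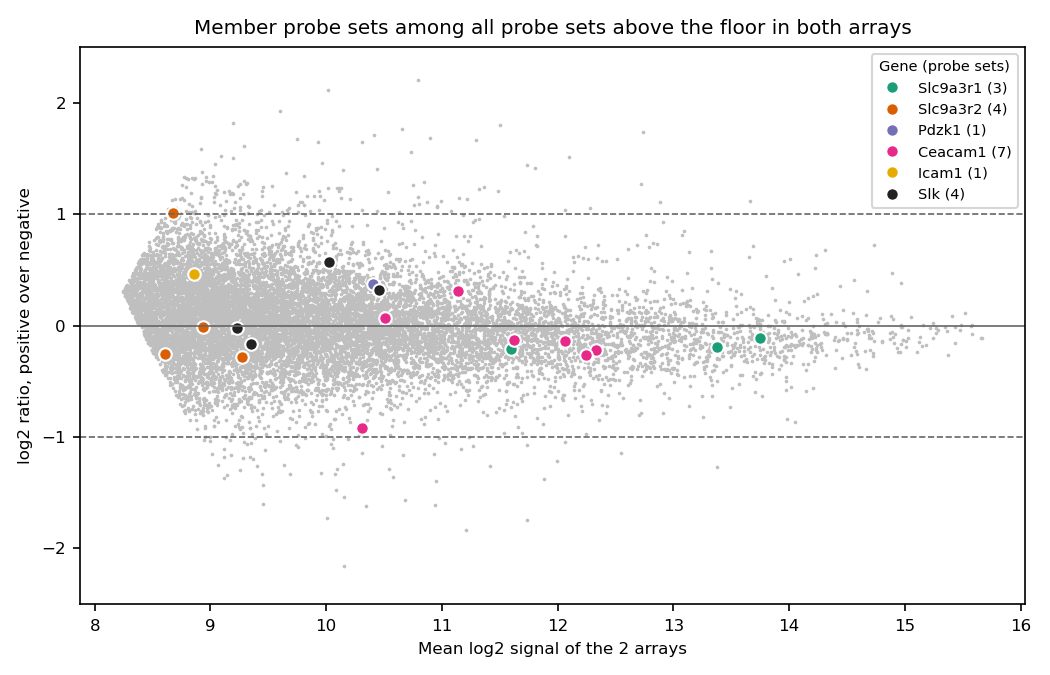
Log2 ratio, positive over negative array, against the mean log2 signal of the 2 arrays for the 13196 single-gene probe sets above the floor in both (grey) and for the 20 member probe sets among them (coloured by gene, number of probe sets in the legend). Dashed lines mark 2-fold. The Slc9a3r1 points lie at the bright end among probe sets that lean below 0, and the 2-fold Slc9a3r2 point lies at the dim end, where the grey points spread widest.

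RNA signals of the ERM genes themselves are given beside those of the partners, and protein was not measured. Both Ezr probe sets were below the floor in both arrays, 15.7 in the positive and 135.3 in the negative array for 1450850_at and 13.6 and 7.6 for 1456725_x_at, and they give no check of the sort. Whether these probes bind the injected ezrin sequence is not given in the sources used here. Rdx read 8001.6 and 7171.3, 4013.7 and 4162.8, and 3270.9 and 4048.4 in its 3 probe sets, at log2 ratios of 0.16, -0.053 and -0.31. Msn exceeded the floor in the negative array only, at 269.1 in the positive and 293.2 in the negative array. Nf2, which encodes the ERM relative merlin, read 500.1 and 274.6 in its brightest probe set (0.86) but 367.9 and 365.3 in the next (0.010), and another, at 244.8 and 391.2, gave a bound of -0.23.

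Other genes of the same circuit were taken from lists by role. Among 12 ligands and relatives of the NHERF and PDZK1 scaffolds with a probe set, 8 were measured in both arrays, 4 higher and 4 lower, with 0 at 2-fold and a median log2 ratio of -0.031 (0.16 with the mean over probe sets). Of those 8, Pdzd3 (0.52) and Scarb1 were farthest from 0. The carnitine transporter gene Slc22a5, above the floor in the negative array only, read 269.6 in the positive and 590.4 in the negative array, at least 1.77-fold lower. Scarb1 read 1767.9 in the positive and 2124.5 in the negative array in its brightest probe set (-0.27), and its other probe sets gave -0.11 and -0.048, all on the lower side, whereas Pdzk1 was on the higher.

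Among 11 other membrane partners of ERM proteins with a probe set, 3 were measured in both arrays, 1 higher and 2 lower, and 7 in neither. The death receptor Fas read 393.0 in the positive and 516.2 in the negative array (-0.39), and the peptidase neprilysin, Mme, read 403.3 and 313.2 (0.36). The adhesion molecule L1cam, above the floor in the positive array only, read 377.3 and 202.4, at least 1.39-fold higher. Among 18 other kinases, phosphatases and lipid regulators of ERM proteins with a probe set, 12 were measured, 7 higher and 5 lower, with 0 at 2-fold and a median of 0.039 (between -0.0062 and 0.11 under the alternatives). The kinase Akt2 read 2008.6 and 1343.9 (0.58) in its brightest probe set but -0.26 in another. Pip5k1c, which makes the PIP2 that opens ezrin, read 683.8 and 460.6 (0.57), and its other probe set was below the floor.

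Among 11 ligands, counter-receptors and effectors of the membrane members with a probe set, 2 were measured in both arrays and 8 in neither, among them the integrin subunits Itgal, Itgam and Itgb2 and the hyaluronan synthases Has1, Has2 and Has3. The phosphatase Ptpn11 (SHP-2), which binds the tyrosine-phosphorylated tail of CEACAM1, was the one gene of these lists at 2-fold, against 1.00% of genes measured in both arrays that were 2-fold higher. It read 2516.0 in the positive and 1186.8 in the negative array in 1451225_at (log2 ratio 1.08) and 957.3 and 676.6 in 1427699_a_at (0.50), higher in both measured probe sets. The phosphatase Ptpn6, of the same list, exceeded the floor in the negative array only. Its brightest probe set read 64.6 in the positive and 306.6 in the negative array, and its bound was 0.

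**Figure D4:**
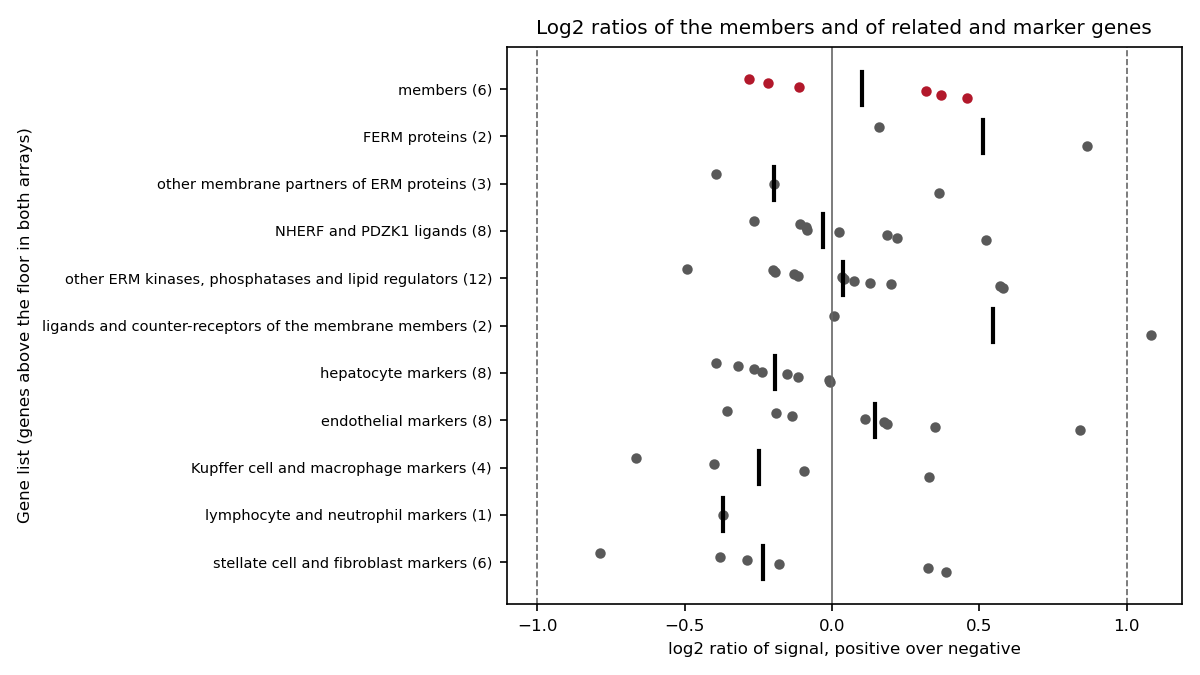
Log2 ratio, positive over negative array, of each gene measured in both arrays (points; brightest probe set), for the members (red) and for the related and marker lists (grey), with the number of such genes in brackets and the list median as a black bar. Dashed lines mark 2-fold. The members scatter on both sides of 0, from -0.28 to 0.46, and Ptpn11 is the only point past 2-fold.

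The plot of gene lists sets the members beside the hepatocyte markers, which check the tissue label. All 8 hepatocyte markers with a probe set were bright, from 11717.9 to 49685.0 in the positive and from 14622.0 to 53836.3 in the negative array. By their brightest probe sets 0 read higher and 8 lower, from -0.0075 (Apoa1) to -0.39 on the log2 scale. The median was -0.19, and -0.13 after quantile normalization, -0.085 after loess correction and -0.099 with the mean over probe sets. Cps1 (-0.39) and Hnf4a (-0.32) were farthest from 0 by their brightest probe sets, and the other Hnf4a probe sets gave -0.093, 0.12 and 0.62. All 6 mesothelial markers and 4 of the 5 cholangiocyte markers with a probe set stayed at background in both arrays, and the fifth, Cldn7, exceeded the floor in the negative array only. Of 6 measured stellate cell and fibroblast markers 2 read higher and 4 lower, Rgs5 (-0.79) and Lrat (0.39) being farthest from 0 by their brightest measured probe sets. The summed signal of all 10 such markers, readings below the floor included, was 3562.2 in the positive and 3868.1 in the negative array. The other Rgs5 probe set measured in both arrays gave -0.20, and the other Lrat probe set was below the floor in both. The floor was exceeded by 35.1% of all probe sets in the positive and 38.2% in the negative array.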

How the data were processed

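Each deposited value is the intensity of a probe set, not logged, made with MAS5 per the submitters' processing notes; for scaling target and detection calls the sources used here give nothing. The authors scaled both arrays alike (2% trimmed mean of 500.0 in each), so a transcriptome-wide shift cannot be seen. Gene names came from the platform annotation: 34945 probe sets carried 1 symbol, 932 several (left out) and 9160 none, and 64 were controls. Of the first, 34741 matched a RefSeq gene by ID, with 0 symbols changed.

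Log2 ratios (positive over negative) were computed in Python 3.11.15 with pandas 2.3.3. The probe set with the highest mean signal stood for its gene. A signal under the floor in 1 array was raised to it and gave a bound, set to 0 where it pointed away from the measured side. Members, gene lists and both thresholds (2-fold and a log2 ratio of 0.322) were chosen with earlier results of these data known. The named genes were all members with every probe set, ezrin, radixin, moesin and merlin, and per list, among genes measured in both arrays, any at 2-fold and otherwise the 2 farthest from 0. Slc22a5, L1cam, Eng and other genes named as below the floor in 1 or both arrays were picked after their values were seen. No genes of similar pattern were sought, since 2 arrays give 1 ratio per probe set. Ratio and loess steps were tested on simulated data. The simulated noise was smaller than the SD of a single probe set given above. Changes were placed only in probe sets well above the floor, so the dim members were not covered. With 1 array per group the number of arrays limits the precision, and no p-values are given.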

Additional observations from a re-analysis of the deposited data

How the results depend on the processing

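No paired analysis was possible because each group held 1 array, and no array could be left out. The alternatives were quantile normalization, loess correction (span 0.3), a floor at the 99th percentile, 1 floor for both arrays, no floor with 16 added to each signal, the mean over probe sets, and probe sets without suffix. A ratio was taken as moved if it shifted by more than 0.29, the SD of 1 probe set implied by differences within genes. Without a floor, 3 members were at 2-fold (0 as reported), 6 past a log2 ratio of 0.322 (3 as reported) and 10 counted as measured (6 as reported), since readings at background then count, and the median of the ligand list was -0.058 (0.55 with the floor, from 2 genes). The median of the FERM proteins, 0.51 from 2 genes, was 0.16 with the 99th percentile floor and with 1 floor, 0.020 without a floor and 0.19 as the mean over probe sets. The stellate cell median, -0.23, was 0.072 with the 99th percentile floor. With a floor kept, the number of members past a log2 ratio of 0.322 in size lay between 2 and 4 under the alternatives. The median over the members stayed between 0.064 and 0.16 under all 7 alternatives. Single genes changed sign in 2 cases, Slc9a3r2 with the mean over probe sets (0.11, -0.28 as reported) and Ceacam1 without suffixed probe sets (0.064, -0.22 as reported). Icam2 ranged from 0.12 with 1 floor to 1.37 without a floor, and Slc9a3r2 probe set 1439368_a_at from 0.68 with the 99th percentile floor to 1.34 without a floor. Low signal limits Icam1, Icam2, Podxl, Cd44, Stk10 and most of Slc9a3r2.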
